A study of Mus musculus with 16 samples.

Results

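The comparison set 2 RNA-seq libraries of Nrf2-/- cells against 2 libraries of wild-type (WT) cells, all treated for 5 h with 10 μM sulforaphane (SFN) in isosmotic medium. These 4 libraries were chosen by their genotype and treatment labels out of 16 in the study. The cells were mIMCD3, which derive from the collecting duct of the mouse inner medulla, the region of the kidney with the highest osmolality. The other libraries came from WT cells given DMSO, the solvent, or SFN, in isosmotic medium or after 1 h or 6 h of hyperosmotic medium, and from Nrf2-/- cells given SFN and then 1 h of hyperosmotic medium, with 2 libraries for each condition. Per the study's methods, the Nrf2-/- line was made with lentiviral Cas9 and a lentiviral guide, each followed by antibiotic selection. Whether the line is 1 clone or a pool, and whether the WT cells carried Cas9, are not given in the sources used here, so loss of Nrf2 and any other difference between the 2 lines cannot be told apart. No Nrf2-/- library with DMSO was analysed here, so it cannot be said which differences SFN brought about in Nrf2-/- cells. Values from WT DMSO isosmotic libraries are therefore given for many of the genes below.

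Nrf2, encoded by Nfe2l2, is a transcription factor of the cap'n'collar family. In unstressed cells Keap1 holds it in the cytoplasm and directs its degradation, and electrophiles such as SFN modify cysteines of Keap1 so that newly made Nrf2 reaches the nucleus. There it pairs with small Maf proteins and binds antioxidant response elements near genes of glutathione synthesis, detoxification, heme and iron handling and NADPH production. Bach1 is a repressor that competes for the same elements.

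Genotype separated the libraries across much of the transcriptome. Of 55367 genes in the files, 19509 passed the expression filter, and 6643 of these (34.1%) passed the threshold of 0.05 on the adjusted p of edgeR's quasi-likelihood test between Nrf2-/- SFN and WT SFN cells, which is used for every call below. Of the calls, 3059 were higher in Nrf2-/- cells (15.7% of genes tested) and 3584 were lower (18.4%). At least 4-fold differences were called for 608 higher and 976 lower genes, and at least 16-fold differences for 266 and 573. Among the same tested genes, 26 had no count in either Nrf2-/- library and a mean of at least 10 CPM in WT. CPM are counts scaled to a common library size. The reverse was seen for 4 genes. The 2 groups did not overlap for 12913 genes, which is 66.2% of those tested, so separation of 2 against 2 libraries alone says little, and an exact permutation test of 1 gene could not go below p = 0.333. Among genes with at least 5 CPM in either genotype, 48.1% were called (23.3% higher and 24.8% lower). For scale, SFN against DMSO in WT cells gave 212 higher and 343 lower calls, or 2.84% of genes tested, and Nrf2-/- SFN against WT DMSO gave 3514 and 4049, with WT SFN or WT DMSO libraries shared among these contrasts.

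**Figure D1:**
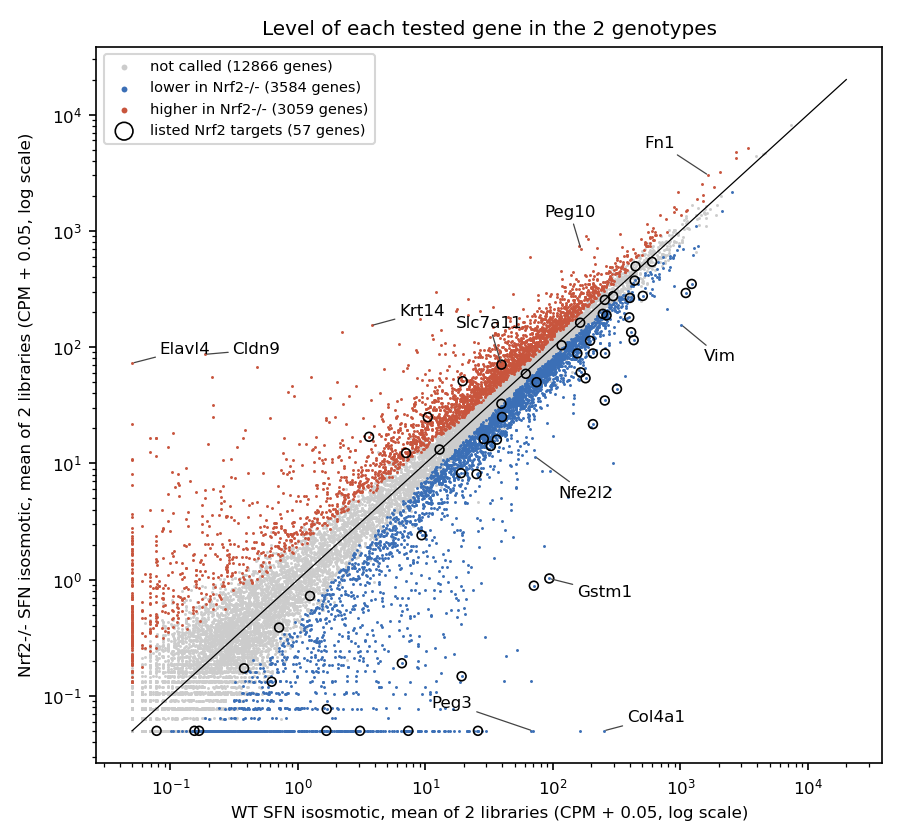
Mean CPM of each of the 19509 tested genes in WT SFN (x axis) and Nrf2-/- SFN cells (y axis), n = 2 libraries each, on log scales after adding 0.05. Called genes spread away from the line of equal level on both sides, and the row along the bottom holds genes such as Col4a1 and Peg3 without a count in Nrf2-/- cells.

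The hyperosmotic libraries gave a second reading of the same 2 lines, since Nrf2-/- SFN 1 h and WT SFN 1 h share no library with the isosmotic comparison. At 1 h, 6154 genes (31.5%) were called between genotypes, 2991 higher (15.3%) and 3163 lower (16.2%) in Nrf2-/- cells. Of the 3059 genes called higher under isosmotic conditions, 2972 had the same sign at 1 h (97.2%), and 2340 were also called (76.5%). Of the 3584 called lower, 3491 had the same sign (97.4%) and 2538 were also called (70.8%). A call of opposite sign was made at 1 h for 5 and 1 of these genes. Most of the genotype difference was thus present in separate libraries, although these came from the same lines. Of the 8 conditions, the Nrf2-/- SFN 1 h pair had the widest spread, with a biological coefficient of variation of 0.348, against 0.0871 for Nrf2-/- SFN and 0.128 for WT SFN isosmotic libraries. Total counts of the 4 isosmotic libraries lay between 34484296 and 50774875.

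Nfe2l2 RNA itself was low in Nrf2-/- cells, at 11.1 and 11.6 CPM against 66.9 and 78.00 in WT SFN and 77.8 and 74.7 in WT DMSO libraries. The groups did not overlap, and the level was 6.37-fold lower (log2 fold change -2.67, SE 0.10, adjusted p = 1.14e-10), with -2.76 at 1 h. The gene lies on the minus strand at chr2:75675513-75704641 (GRCm38), and a count over the whole gene does not show whether the remaining RNA encodes Nrf2. SFN left Nfe2l2 RNA at a log2 difference of -0.07 from DMSO in WT cells. Keap1 stood at 47.6 and 42.9 CPM in Nrf2-/- and 64.3 and 60.5 in WT SFN libraries, a difference of -0.46 on the log2 scale (SE 0.0995, adjusted p = 0.0021), but of only -0.09 at 1 h, where it was not called. Bach1 was higher, at 59.8 and 62.5 CPM against 37.1 and 42.2 (log2 0.62, adjusted p = 0.00685). This call was lost without WT SFN replicate 1 (adjusted p = 0.0780).

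Within 1 Mb of Nfe2l2, 24 other genes were tested, with a median log2 fold change of 0.37. Of these, 5 were higher and 3 lower, so that 33.3% were called, near the 34.1% of all genes. Hnrnpa3, an RNA-binding protein gene next to Nfe2l2, rose to 237 ± 9.89 CPM (SD, n = 2, as for all errors on CPM) from 139 ± 16.4. The homeobox genes Hoxd8 (1.96 on the log2 scale) and Hoxd9 (1.59) and the ciliary transport gene Ttc30a1 (1.51) were also higher, as was Gm24996, a gene model inside Nfe2l2 with 0.330 CPM in Nrf2-/- cells. Lower were Osbpl6 (-2.71), Prkra (-0.55) and Ttc30b (-0.75). Without Nrf2-/- replicate 1 the calls for Ttc30a1, Ttc30b and Prkra were lost (adjusted p = 0.0666, 0.0808 and 0.0601). That for Ttc30b was lost without any 1 of the 4 libraries, and that for Prkra also without Nrf2-/- replicate 2 or WT SFN replicate 2 (adjusted p = 0.0975 and 0.0876).

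Nrf2 target genes were more often lower than higher. Of 58 listed, 57 were tested, and 36 were lower, 5 higher and 16 not called, so that 71.9% were called. Their median log2 fold change was -1.21, or -0.96 with genes at 0 counts set to their bound, beside -0.0009 over all genes tested. In WT cells 15 of the 57 were called higher with SFN, with a median of 0.38, and against WT DMSO cells the Nrf2-/- SFN cells had a median of -0.76. The list holds 57 of 19509 genes tested, so nearly all calls would fall outside it whatever its members did. The calls outside it were 6602 of 6643 (99.4%), while 71.9% of its members were called against 34.1% of all genes tested.

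Among genes of glutathione synthesis, 5 of 7 were lower and 1 was higher. Gclc, the catalytic subunit of the rate-limiting enzyme, was at 53.02 and 54.7 CPM in Nrf2-/- libraries against 169 and 191 in WT SFN and 78.3 and 73.9 in WT DMSO libraries, a 3.34-fold lower level than with WT SFN (adjusted p = 4.98e-09). Gclm, its regulatory subunit, gave 127 and 141 CPM against 387 and 435 in WT SFN and 174 and 179.7 in WT DMSO libraries (log2 -1.61, SE 0.0952). For both, Nrf2-/- cells with SFN lay below WT cells without it. Gss, which completes the tripeptide, was 2.27-fold lower. Slc7a11, the cystine importer that supplies the pathway, went the other way, with 73.4 and 67.8 CPM in Nrf2-/- against 37.3 and 41.5 in WT SFN and 8.67 and 6.37 in WT DMSO libraries (log2 0.84, SE 0.25, adjusted p = 0.0162). Its groups did not overlap and the difference at 1 h was 1.32 (adjusted p = 0.000967), but removal of any 1 of the 4 libraries raised the adjusted p to between 0.0540 and 0.117.

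The 9 glutathione S-transferase genes tested, whose products conjugate glutathione to electrophiles, were all lower, with a median log2 fold change of -6.39 (-5.18 with bounds). Gsta4 was at 0.597 and 1.07 CPM against 77.4 and 64.2 in WT SFN and 36.3 and 42.2 in WT DMSO libraries. Gstm1 was at 0.654 and 1.29 against 90.02 and 97.2 in WT SFN and 79.02 and 84.8 in WT DMSO libraries, and therefore 95.4-fold lower than in WT SFN cells (adjusted p = 1.83e-11), while SFN moved it by 0.19 in WT cells (adjusted p = 0.579). Gsta1 had no count in Nrf2-/- libraries and 24.00 and 27.5 CPM in WT SFN libraries, which is at least 310.2-fold lower against a floor of 3 counts per library. Gstm2 fell 3.92-fold. These families hold near-identical copies among which reads could have been divided.

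Of 10 genes of quinone, carbonyl and epoxide detoxification, 5 were lower and none higher. Nqo1, a quinone reductase widely used as a reporter of Nrf2 activity, had no count in either Nrf2-/- library, 7.19 and 7.38 CPM in WT SFN and 2.55 and 2.85 in WT DMSO libraries, or at least 87.8-fold less than with WT SFN. The carbonyl reductase gene Cbr3 fell 45.7-fold, Ugdh, which makes the sugar donor for glucuronidation, 2.34-fold, and the epoxide hydrolase gene Ephx1 2.32-fold. Among thioredoxin pathway genes, Srxn1, which repairs oxidized peroxiredoxins, was at 22.02 and 21.3 CPM against 212 and 199.8 in WT SFN and 81.6 and 82.6 in WT DMSO libraries (log2 -3.25, SE 0.0949, adjusted p = 7.21e-12). Txnrd1, the cytosolic thioredoxin reductase, was at 346 and 352 CPM against 1218 and 1233 in WT SFN and 792 and 778 in WT DMSO libraries. Again the Nrf2-/- libraries lay below both WT groups. Prdx1 was not called, at 466 and 524 CPM against 430.5 and 458 (log2 0.16, SE 0.14, adjusted p = 0.44).

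In the heme and iron group, 6 of 7 genes were lower. Hmox1, which degrades heme, was at 37.6 and 49.5 CPM against 327 and 308 in WT SFN and 71.3 and 84.2 in WT DMSO libraries (log2 -2.87, SE 0.25, adjusted p = 1.07e-06). The heme transporter gene Slc48a1 was at 34.5 and 34.8 CPM against 266 and 244 in WT SFN and 122 and 124 in WT DMSO libraries. Fth1, the ferritin heavy chain that stores iron, fell 3.77-fold, and the biliverdin reductase gene Blvrb 3.12-fold. Of 6 genes of NADPH production, the pentose phosphate enzymes Pgd (-1.14), Tkt (-0.88), G6pdx (-0.82) and Taldo1 (-0.79 on the log2 scale) were lower, with the call for Taldo1 lost on removal of any 1 library (adjusted p up to 0.0958). Idh1, a cytosolic NADP-dependent dehydrogenase, was 2.60-fold higher (50.8 ± 0.525 against 19.5 ± 1.56 CPM), and Me1 gave 104 ± 1.25 against 117 ± 4.90 CPM, a difference that did not pass (adjusted p = 0.323).

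Exporters and other listed targets were mixed, with 5 lower, 3 higher and 5 not called. Abcc3, an exporter of conjugated organic anions, was at 0.114 and 0.0806 CPM against 17.6 and 20.7 in WT SFN libraries, 192-fold lower. The esterase gene Esd (-1.91 on the log2 scale), the efflux pump gene Abcg2 (-1.21) and Osgin1 (-0.83) were also lower. Htatip2 was 4.76-fold higher (16.6 and 17.1 against 4.16 and 2.96 CPM), the glycine transporter gene Slc6a9 2.40-fold (26.4 and 23.3 against 10.5 and 10.3) and the lipase gene Lipg 1.75-fold (11.5 and 12.9 against 7.62 and 6.38 in WT SFN and 13.7 and 12.9 in WT DMSO libraries, so that Nrf2-/- cells did not exceed WT cells without SFN). Sqstm1, which encodes the autophagy adaptor p62, gave 373 ± 4.62 against 437 ± 36.1 CPM and was not called (adjusted p = 0.167).

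**Figure D2:**
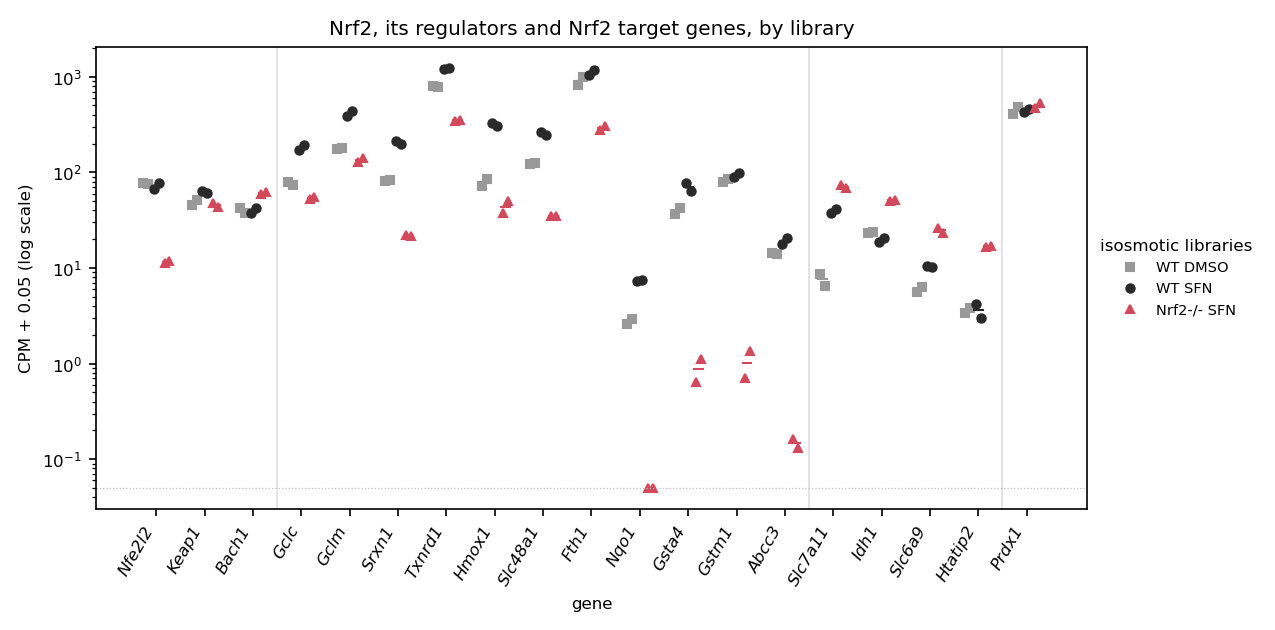
CPM + 0.05 on a log scale in each isosmotic library for Nfe2l2, its 2 regulators and 16 of the listed Nrf2 targets, with WT DMSO, WT SFN and Nrf2-/- SFN as separate symbols, 2 libraries each, and a bar at each mean. The 11 target genes from Gclc to Abcc3 have their lowest values in Nrf2-/- libraries, the next 4 have their highest there, and Prdx1 differs little, while symbols on the dotted line are libraries without a count.

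The core of the antioxidant response element was searched in RefSeq promoters (GRCm38.p6, 250 bases before to 50 after the start of each transcript listed) as TGACNNNGC on either strand. A gene with several such windows was counted once if any held a match. A match was present for 15 of the 45 tested Nrf2 targets with a promoter entry (33.3%) and for 2046 of 12378 tested genes with one (16.5%). Among genes called lower it was found in 16.8% of 2738 promoters, among genes called higher in 16.6% of 2215 and among genes not called in 16.4% of 7425. The share therefore hardly moved with the call, and the elements of many Nrf2 targets lie farther from the start than this window. Examples from 3 genes that were lower, 1 that did not pass and 1 that was higher are shown to let the elements be compared, each with 20 bases on both sides, 5′ to 3′ along the gene's strand, with the matched bases in capitals.
Gclm, lower: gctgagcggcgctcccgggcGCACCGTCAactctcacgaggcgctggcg
Ugdh, lower: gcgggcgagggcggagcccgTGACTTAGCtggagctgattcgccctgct
Txnrd1, lower: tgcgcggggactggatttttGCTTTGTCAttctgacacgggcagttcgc
Prdx1, not called: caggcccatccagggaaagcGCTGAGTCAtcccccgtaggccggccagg
Htatip2, higher: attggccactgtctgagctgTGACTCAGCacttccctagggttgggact
These stretches lie at chr3:122245403-122245451 (plus strand), chr5:65435946-65435994 (minus), chr10:82859094-82859142 (plus), chr4:116685446-116685494 (plus) and chr7:49759443-49759491 (plus). The matches begin 134, 132, 92, 133 and 49 bases before the start of the RefSeq transcript that the window belongs to. In GENCODE M21 the stretch lies in an intron of 1 of 8 Txnrd1 transcripts and of all 3 Htatip2 transcripts, which begin farther upstream. No GENCODE transcript of Htatip2 thus begins after the stretch. In Gclm, Txnrd1 and Prdx1 the match is to the reverse complement, GCNNNGTCA. A match is a description of the letters and does not show binding, and genes with a match went in both directions.

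Outside the Nrf2 targets, the largest losses included genes that WT cells expressed strongly. Col4a1 and Col4a2, the chains of the ubiquitous type IV collagen of basement membranes, gave 271 and 229.7 CPM (Col4a1) and 177 and 151 CPM (Col4a2) in WT SFN libraries and no count in either Nrf2-/- library, at least 3020-fold and 1974-fold lower. The 2 genes are transcribed away from each other from a shared promoter region, and their annotated 5′ ends overlap at chr8:11312805-11312826. WT DMSO libraries held 195 and 154 CPM of Col4a1, and at 1 h the Nrf2-/- libraries again had 0 and 0 CPM against 233 and 221 in WT SFN. Peg3, an imprinted zinc finger gene expressed from the paternal allele, had no count in Nrf2-/- libraries and 68.03 and 70.2 CPM in WT SFN libraries. Bend4, Elfn1, Slc16a10 (an aromatic amino acid transporter) and the kinase gene Lrrk2 were likewise at 0 in both Nrf2-/- libraries and at means between 21.5 and 67.5 CPM in WT SFN cells. So were Havcr1, which encodes the kidney injury molecule KIM-1 (26.3 and 29.4 CPM in WT SFN), the monocyte attractant gene Ccl2 (25.5 and 25.5) and the membrane-bound matrix protease gene Mmp14 (22.8 and 25.1). Gsta1, a listed Nrf2 target, was also among the 12 largest losses.

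The largest gains were in genes nearly silent in WT cells. Elavl4, a neuronal RNA-binding protein gene, had no count in WT SFN or WT DMSO libraries and 71.1 and 74.1 CPM in Nrf2-/- libraries, at least 1068-fold higher. Cldn9, a tight junction claudin, rose from 0.161 and 0.111 to 88.9 and 84.1 CPM. Dynap, the lectin gene Clec2f and Aim2, a sensor of cytosolic DNA, had no count in WT SFN libraries and were at least 318, 159.5 and 155-fold higher. Chodl and Hdx had 2 counts over the WT SFN libraries and 16.4 ± 0.332 and 16.4 ± 0.116 CPM in Nrf2-/- cells, ratios of 749.5 (95% interval 207 to 6196) and 749 (95% interval 207 to 6191) with counting error only. The chemokine scavenger gene Ackr3 (12.4 ± 2.19 CPM), Xlr (11.6 ± 0.998), the type VI collagen gene Col6a3 (18.3 ± 2.58), the fatty acid receptor gene Cd36 (13.8 ± 0.400) and the matrix gene Smoc1 (31.7 ± 1.24) were each below 0.23 CPM in every WT SFN library. These 12, after 2 unnamed gene models were passed over, kept their direction at 1 h, where the fitted differences lay between 6.61 and 12.68 on the log2 scale.

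Of 18 genes of the collecting duct and its lineage, 7 were lower and 2 higher, and the 50% called was near the 48.1% of genes at 5 CPM or more. Pax2, a transcription factor of the ureteric bud and duct lineage, was at 27.5 and 26.2 CPM against 139 and 146 in WT SFN and 119 and 119.7 in WT DMSO libraries (5.30-fold lower, adjusted p = 9.64e-11). Its relative Pax8 was 1.57-fold lower and the epithelial ETS factor gene Elf3 2.64-fold. Tfcp2l1, a transcription factor of the mature collecting duct, was higher (62.7 ± 5.29 against 27.2 ± 0.117 CPM), as was Wnt7b (238 ± 20.8 against 146 ± 4.19). Hoxb7 gave 34.6 ± 0.441 against 28.8 ± 1.89 CPM and did not pass. The water channel genes Aqp2 and Aqp3, which define principal cells in the kidney, were below 0.2 CPM in all 4 libraries, so the cells of both genotypes lacked these markers. The sodium channel gene Scnn1a was low in both and lower in Nrf2-/- cells, at 0.683 and 0.698 CPM against 1.93 and 2.91 in WT SFN libraries. Endothelial and intercalated cell markers summed to less than 1 CPM in every isosmotic library, and 6 blood cell markers to between 3.93 and 8.84. Lrp2, a proximal tubule receptor, was at 0.284 and 0.0537 CPM against 6.62 and 7.10, and Podxl, a sialomucin of podocytes and other epithelia, was 3.79-fold higher.

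Epithelial adhesion and polarity genes were more often higher than lower. Of 29 tested, 15 were higher and 3 lower, with a median log2 fold change of 0.45 (0.39 at 1 h). The 62.1% called stood against 48.1% of genes at 5 CPM or more, with 51.7% higher against 23.3% of those genes. Cdh1, which encodes E-cadherin, was at 438 and 438 CPM against 138 and 147 in WT SFN and 227 and 224 in WT DMSO libraries (log2 1.62, SE 0.0898, adjusted p = 4.28e-09). Epcam was at 264 and 304 CPM against 50.3 and 47.3 in WT SFN and 80.8 and 89.8 in WT DMSO libraries. SFN had lowered Cdh1 in WT cells (adjusted p = 0.000559), the same difference for Epcam did not pass (adjusted p = 0.0566), and Nrf2-/- cells lay above both WT groups for both genes. The tight junction gene Ocln (4.87-fold), the recycling GTPase gene Rab25 (4.09-fold) and the desmosomal gene Pkp1 (3.48-fold) were higher too. The exceptions were Ehf, an epithelial ETS factor with no count in Nrf2-/- and 7.72 and 10.2 CPM in WT SFN libraries, Cdh16, the kidney-specific cadherin (20.1 and 20.9 against 202 and 199 CPM), and the desmoplakin gene Dsp, which was 1.98-fold lower.

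Keratins are the intermediate filaments of epithelia. Of 25 tested, 9 were higher and none lower, with a median log2 fold change of 0.29. The 36% called was near the 34.1% of all genes. All of these calls were higher. The share of tested keratins called higher was thus 36%, against 15.7% of all genes tested and 23.3% of genes at 5 CPM or more. Krt14, a keratin of basal stratified epithelium, was at 163 and 144 CPM against 3.54 and 3.91 in WT SFN and 5.96 and 6.59 in WT DMSO libraries (log2 5.36, SE 0.22, adjusted p = 2.19e-10), and 245 and 152 against 4.59 and 4.60 at 1 h. Krt16 rose 59.4-fold to 19.3 ± 1.66 CPM and Krt7, a keratin of simple ducts, 5.02-fold to 904 ± 99.3. Krt6a had no count in any of the 4 isosmotic WT libraries and 6.80 and 6.10 CPM in Nrf2-/- libraries, although near-identical keratin copies could exchange reads. The simple epithelial keratins Krt8 (693 ± 60.02 against 788 ± 67.6 CPM), Krt18 (539 ± 30.4 against 572 ± 35.9) and Krt19 (321 ± 19.6 against 355 ± 38.7) did not pass. Among 15 claudins, 6 were higher and 2 lower (53.3% called, against 48.1% of genes at 5 CPM or more). Cldn1 was 19.2-fold higher (171 and 178 against 8.61 and 9.56 CPM), Cldn7 3.65-fold and Cldn4 2.09-fold, although Cldn4 in WT DMSO libraries was higher still (345 and 385 CPM). Cldn3 (-1.13) and Cldn12 (-0.80 on the log2 scale) were lower.

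Mesenchymal genes included large losses. Of 19 tested, 7 were lower and 3 higher, with a median log2 fold change of -0.02 (-0.38 at 1 h). The 52.6% called was near the 48.1% of genes at 5 CPM or more. Vim, the intermediate filament vimentin, was at 158 and 154 CPM against 978 and 1054 in WT SFN and 934 and 1066 in WT DMSO libraries (6.54-fold lower, adjusted p = 3.9e-09). Sparc, a matricellular calcium-binding protein gene, was at 9.50 and 10.7 against 309 and 285 CPM, and Zeb1, a repressor of E-cadherin, at 0.796 and 0.430 against 16.7 and 19.1. Twist1 had no count in Nrf2-/- libraries and 8.61 and 6.28 CPM in WT SFN libraries, and Acta2, smooth muscle actin, was 14.1-fold lower. Fn1, fibronectin, was higher (3006 ± 98.4 against 1657 ± 89.04 CPM), while Cdh2, N-cadherin, did not pass (189 ± 7.97 against 178 ± 7.68). The 10 mesenchymal markers together summed to 356 and 343 CPM in Nrf2-/-, 1160 and 1250 in WT SFN and 1120 and 1240 in WT DMSO libraries, with Vim as the largest part in WT cells. The 14 markers of collecting duct epithelium summed to 2530 and 2420 CPM in Nrf2-/-, 2550 and 2370 in WT SFN and 3130 and 3500 in WT DMSO libraries. Pdgfrb and Thy1 were at 0 in all 6 of these libraries and Pdgfra was at or below 0.161 CPM. The fibrillar collagen genes Col3a1 (1.25 and 2.28 CPM in Nrf2-/-) and Col1a2 (0.455 and 0.457) were at 0 in both WT groups and called higher, while Col1a1 was lower (1.25 and 1.61 against 4.32 and 4.95). In these bulk libraries fewer cells of a type and less RNA per cell cannot be told apart, and the part of a mixed population in the result was not tested.

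**Figure D3:**
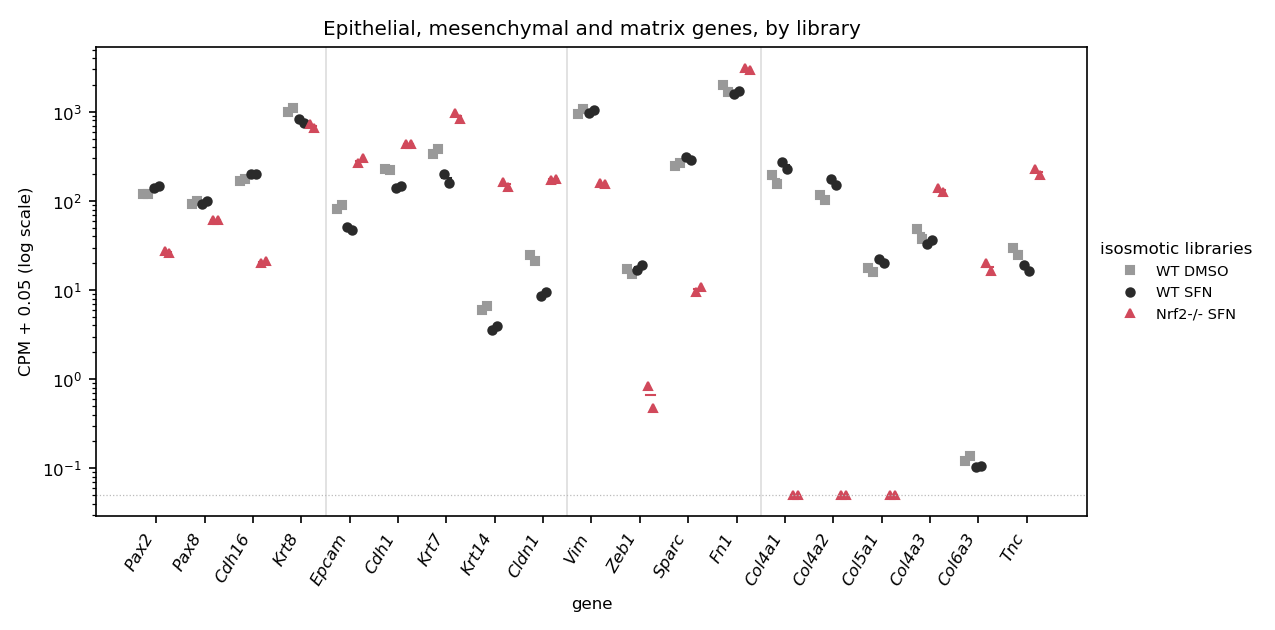
CPM + 0.05 on a log scale in each isosmotic library for duct genes (Pax2 to Krt8), genes of epithelial adhesion, keratins and claudins (Epcam to Cldn1), mesenchymal genes (Vim to Fn1) and matrix genes (Col4a1 to Tnc), 2 libraries each with a bar at the mean. Nrf2-/- symbols stand above both WT groups for Epcam, Cdh1, Krt7, Krt14, Cldn1 and Fn1 and below them for Pax2, Cdh16, Vim, Zeb1 and Sparc, and those of Col4a1, Col4a2 and Col5a1 lie on the dotted line of 0 counts.

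Matrix genes differed in both directions. Of 32 collagen genes tested, 13 were higher and 8 lower. The share called was 65.6%, against 34.1% of all genes tested and 48.1% of genes at 5 CPM or more. Apart from Col4a1 and Col4a2, Col5a1 went from 22.1 and 20.03 CPM in WT SFN to no count, and Col7a1, the anchoring fibril collagen, fell 8.17-fold. Col4a3, a chain of the other type IV network that is found in specialised basement membranes, was 3.77-fold higher (138 and 125 against 33.1 and 36.8 CPM). Col12a1 was 5.65-fold higher, and the hemidesmosomal collagen gene Col17a1 rose to 8.38 ± 0.378 from 0.0536 ± 0.0758 CPM. Among laminins, Lamb1 (0.68 on the log2 scale) was higher and Lamb2 (-0.71) lower. Integrin subunits, the receptors for this matrix, split into 8 higher and 6 lower of 24 (58.3% called). Itgb8 (4.33-fold) and Itgb6 (3.32-fold), which both bind latent TGF-β, were higher, Itgb6 from a WT level that was lower with SFN than with DMSO (7.05 and 9.82 against 22.5 and 20.6 CPM), whereas the collagen receptor subunits Itga1 (18.5-fold) and Itga2 (9.85-fold) and the fibronectin receptor subunit Itga5 (2.11-fold) were lower.

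Among 34 matrix proteases and inhibitors, 11 were higher and 10 lower (61.8% called, against 48.1% of genes at 5 CPM or more). The aggrecanase gene Adamts5 was at 615 and 586 CPM against 60.2 and 71.2 in WT SFN and 141 and 129.7 in WT DMSO libraries, 9.13-fold higher, and Adamts1 was 2.81-fold higher (569 and 613 against 202 and 219 in WT SFN and 498 and 416 in WT DMSO libraries). The tissue plasminogen activator gene Plat was lower, at 10.9 and 15.1 CPM against 70.9 and 71.1 in WT SFN libraries. Of 30 proteoglycan and matricellular genes, 14 were higher and 6 lower (66.7% called). Tnc, tenascin C, was 11.98-fold higher (225 and 197 against 19.2 and 16.1 CPM), and the latent TGF-β binding genes Ltbp1 and Ltbp4 were 6.58-fold and 7.88-fold higher. Semaphorins, ephrins and their receptors, which guide cell contact, gave 17 higher and 12 lower of 47 (61.7% called). Plxna2 was 9.26-fold higher, Plxnb2 and Plxnd1 were 2.61-fold and 4.21-fold lower, and Sema5a was without a count in Nrf2-/- cells against 6.999 and 10.4 CPM in WT SFN cells.

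TGF-β and BMP genes had the highest share of lower calls among lists of at least 15 tested genes, 14 of 23 (60.9% against 18.4% of all genes and 24.8% of genes at 5 CPM or more), with 4 higher and a median of -1.36 (-1.13 with bounds, -1.31 at 1 h). The BMP-responsive inhibitors of differentiation Id1 (53.2 and 52.98 against 167 and 146 CPM), Id3 (53.6 and 57.2 against 146 and 139.8) and Id4 (no count against 16.4 and 14.8) were lower, whereas Id2 did not pass (152 ± 13.99 against 174 ± 19.1). The inhibitory Smad gene Smad6 was 2.43-fold lower and Smad7 did not pass (log2 0.22, adjusted p = 0.32). The ligand genes Bmp7 (10.2 and 9.41 CPM in WT SFN) and Inhbb (7.45 and 8.01) had no count in Nrf2-/- libraries. Other ligands were higher, Inhba 4.47-fold (150.1 ± 8.74 CPM) and Tgfb3 5.99-fold (30.3 ± 4.96 CPM), as was the corepressor gene Tgif1 (2.998-fold). With SFN against DMSO in WT cells 4 of these genes were lower and 1 higher.

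In the Notch pathway 8 of 17 genes were lower and none higher. The 47.1% called was near the 48.1% of genes at 5 CPM or more, of which 24.8% were lower. The ligand gene Jag2 was at 1.88 and 1.07 CPM against 34.6 and 34.8 in WT SFN libraries (23.6-fold), the receptor gene Notch1 at 21.2 and 17.8 against 61.2 and 70.4, and Jag1 was 1.75-fold lower. The target gene Hes1 did not pass (log2 -0.35, adjusted p = 0.152), but in WT cells SFN libraries were lower than DMSO libraries (log2 -1.81, adjusted p = 3.59e-05). Wnt pathway genes gave 5 higher and 8 lower of 23 (56.5% called). Among them were the Wnt receptor ligase gene Rnf43 (2.90-fold higher) and the nuclear effector gene Tcf7 (3.63-fold lower). YAP and SRF targets split evenly (8 and 8 of 29, 55.2% called). Flna was higher (2549 ± 279 against 1465 ± 7.30 CPM) and Ccn1 lower (745 ± 77.8 against 1383 ± 74.8). Growth factor genes were split as well, 13 higher and 11 lower of 39 (61.5% called). Gdnf, a ligand that drives ureteric branching, was 4.51-fold higher, while the macrophage growth factor gene Csf1 (2.62-fold), Igfbp7 (3.77-fold) and the stress-induced cytokine gene Gdf15 (2.21-fold) were lower. Genes of MAPK feedback and the immediate-early response gave 12 higher and 4 lower of 32. The 50% called was near the 48.1% of genes at 5 CPM or more, with 37.5% higher against 23.3% of those genes. Etv5 rose 4.51-fold (70.4 and 67.3 against 14.7 and 15.8 CPM), the ERK phosphatase gene Dusp6 3.66-fold and Klf4 5.64-fold. In WT cells 20 genes of this list were lower with SFN than with DMSO, and for Dusp6 the WT DMSO level (151 and 153 CPM) lay nearer to that of Nrf2-/- cells (194 and 233) than the WT SFN level did (58.2 and 58.5).

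Among immune genes lower calls outnumbered higher ones, as they did to a lesser degree over all genes tested (18.4% lower and 15.7% higher). Of 40 NF-κB targets, chemokines and cytokines, 19 were lower (47.5%) and 5 higher (12.5%). Besides Ccl2, Traf1 (0.683 and 0.806 against 16.1 and 15.7 CPM), the fractalkine gene Cx3cl1 (1.25 and 1.53 against 16.3 and 14.5) and the NF-κB cofactor gene Bcl3 (0.0284 and 0.242 against 10.5 and 9.41) were lower. Cxcl16 (2.91-fold) and the feedback inhibitor gene Tnfaip3 (1.41-fold) were higher, the latter from a WT level that SFN had lowered, from 78.3 ± 4.93 to 30.7 ± 0.892 CPM. Of 21 antigen presentation genes 11 were lower (52.4%) and 1 higher (4.76%). The peptide-loading gene Tapbp was 1.60-fold lower, and the class I gene H2-Q4, whose close paralogs make its counts uncertain, 10.8-fold, whereas the light chain gene B2m did not pass (137 ± 27.5 against 117 ± 6.95 CPM). Interferon-stimulated genes gave 13 lower (30.2%) and 8 higher (18.6%) of 43, and the 48.8% called was near the 48.1% of genes at 5 CPM or more. The guanylate-binding protein gene Gbp3 was at 0.284 and 0.107 CPM against 50.1 and 54.2 in WT SFN libraries.

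Prostaglandin genes differed in both directions. Ptgs2, which encodes cyclooxygenase 2, was at 696 and 781 CPM against 146 and 174 in WT SFN and 343 and 306 in WT DMSO libraries (log2 2.21, SE 0.13, adjusted p = 5.96e-09). The phospholipase gene Pla2g4a, which releases its substrate, was 2.27-fold higher, and the prostaglandin uptake carrier gene Slco2a1 4.06-fold lower (38.5 and 33.8 against 139 and 154 CPM). Over the whole list 3 genes were higher and 4 lower of 17. The 41.2% called lay between the 34.1% of all genes and the 48.1% of genes at 5 CPM or more. Cyp1b1, a cytochrome P450 induced by the aryl hydrocarbon receptor, was at 0.171 and 0 CPM against 39.4 and 43.6. Of 11 aryl hydrocarbon receptor and other xenobiotic genes 5 were lower and 1 higher (54.5% called).

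Among cell cycle genes lower calls outnumbered higher ones, by modest amounts. Of 45 G2 and mitosis genes, 21 were lower and 1 higher, with a median of -0.34 (-0.31 at 1 h). The 48.9% called was near the 48.1% of genes at 5 CPM or more, with 46.7% lower against 24.8% of those genes. Of 44 S phase genes 19 were lower and 5 higher (median -0.29), or 54.5% called and 43.2% lower. The kinetochore gene Spc24 (2.15-fold), the anaphase activator gene Cdc20 (1.83-fold), the histone mRNA-binding gene Slbp (2.02-fold) and the thymidylate synthase gene Tyms (1.74-fold) were lower. Pola1, the catalytic subunit of DNA polymerase α and an X-linked gene, was 2.45-fold higher. The D cyclin genes Ccnd1 and Ccnd2 were higher, Ccnd1 at 761 and 671 CPM against 228 and 216 in WT SFN libraries (3.22-fold) and Ccnd2 at 101 and 87.7 against 27.6 and 29.6 (3.31-fold), while the inhibitor gene Cdkn2d was 3.33-fold lower. Of 24 clustered histone genes 6 were lower, among them H1f2 (6.89-fold), and this 25% was near the 24.8% of genes at 5 CPM or more. Targets of p53 gave 12 higher and 5 lower of 28 (60.7% called). These included Perp (3.23-fold, 147 ± 7.85 CPM) and Eda2r (28.1-fold) among the higher and Phlda3 (1.72-fold) among the lower.

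Amino acid synthesis and ATF4 target genes had the highest share of higher calls among lists of at least 15 tested genes, 20 of 36 (55.6% against 15.7% of all genes and 23.3% of genes at 5 CPM or more), with 2 lower and a median of 0.46 (0.73 at 1 h). Asns, asparagine synthetase, was at 429 and 406 CPM against 132 and 145 in WT SFN and 115 and 129 in WT DMSO libraries (3.01-fold, adjusted p = 5.05e-07). Cth, which makes cysteine from cystathionine, was at 55.5 and 60.7 against 9.49 and 10.1 CPM (5.92-fold), and Stc2 (10.4-fold), the proline synthesis gene Pycr1 (2.75-fold) and the serine synthesis gene Psat1 (1.60-fold) were higher. Atf4 RNA itself did not pass (395 ± 17.1 against 426 ± 16.5 CPM), and neither did the first gene of serine synthesis, Phgdh (742 ± 53.6 against 778 ± 10.9). Slc7a11 and Cth, which bring in and make cysteine, were thus both higher while the glutathione synthesis genes Gclc, Gclm and Gss were lower.

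Lipid genes moved in part. Of 26 fatty acid oxidation genes 14 were lower and 2 higher (median -0.49, -0.34 at 1 h). The 61.5% called stood against 48.1% of genes at 5 CPM or more, with 53.8% lower against 24.8% of those genes. The regulator gene Ppard was 3.37-fold lower and the mitochondrial trifunctional subunit gene Hadhb 2.24-fold, whereas Pdk4, which turns off pyruvate dehydrogenase, was 22.1-fold higher. Of 25 cholesterol synthesis genes 8 were lower and 3 higher, and the 44% called was near the 48.1% of genes at 5 CPM or more. The lower genes were led by the regulator gene Srebf2 (114 and 104 against 272 and 279.8 CPM) and the demethylase gene Cyp51 (1.84-fold). Glycolysis and hypoxia genes gave 8 higher and 12 lower of 37 (54.1% called). Ndrg1 was 4.64-fold higher and the oxygen sensor gene Egln3 26.4-fold lower (0.683 and 0.618 against 16.7 and 17.8 CPM).

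Among genes of the basic machinery the shares varied. Of 87 cytosolic ribosomal protein genes only 10.3% were called, below the share of all genes, 3 higher and 6 lower, with Rplp0 (1.76-fold) and the X-linked Rps4x (1.97-fold) higher. Of 76 mitochondrial ribosomal protein genes 28 were lower (36.8%) and 2 higher, with a median of -0.38 and Mrps16 2.29-fold lower. Of 82 nuclear respiratory chain genes 13 were lower and none higher (median -0.39), with Atp5g2 2.29-fold lower. The 15.9% called lower was below the 18.4% of all genes tested. The 13 genes of mitochondrial DNA had 0 counts in all 16 libraries and could not be assessed. Proteasome subunits were lower in 13 and higher in 4 of 38, and the 44.7% called was near the 48.1% of genes at 5 CPM or more. Lysosome and autophagy genes split into 12 higher and 14 lower of 44 (59.1% called). Lamp2, which is X-linked, was 2.66-fold and the β-glucuronidase gene Gusb 3.75-fold higher. Heat shock chaperones gave 5 higher and 4 lower of 24 (37.5% called). Hspa1a, the inducible Hsp70, was at 0.626 and 0.913 CPM in Nrf2-/- libraries. It was at 10.8 and 12.3 in WT SFN and 4.10 and 4.49 in WT DMSO libraries. Among endoplasmic reticulum chaperones (6 higher and 4 lower of 24, 41.7% called), Creld2 was 2.30-fold lower.

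Transport and osmolyte genes, which collecting duct cells use against high osmolality, showed no common direction before any hyperosmotic stress. Of 18 NFAT5 targets and osmolyte genes, 4 were higher and 4 lower, and the 44.4% called was near the 48.1% of genes at 5 CPM or more. Sgk1, a kinase gene, was at 34.5 and 40.6 CPM against 15.2 and 18.7 in WT SFN libraries and was called higher, but WT DMSO libraries held 37.2 and 38.05 and the difference at 1 h was -0.02. The inositol importer gene Slc5a3 (181 and 186 against 61.8 and 82.1 CPM) was higher, the taurine importer gene Slc6a6 (158 and 155 against 272 and 272) and the aldose reductase gene Akr1b3 (227 and 208 against 297 and 306) lower, and Nfat5 itself did not pass (383 ± 7.26 against 331 ± 56.3). Of 23 sodium and potassium transport genes 5 were higher and 8 lower (56.5% called). The kinase genes Wnk4 (2.93-fold) and Stk39 (24.7-fold), which regulate sodium chloride cotransport, were lower. Among 282 solute carriers 45 were higher and 65 lower, or 39% called, near the share of all genes, with the organic anion carrier gene Slco4a1 at 0.171 and 0.161 against 14.1 and 14.5 CPM. Abcb1a, a multidrug efflux pump gene, rose 44.7-fold (56.9 and 53.6 against 1.15 and 1.30 CPM), the chloride channel gene Ano1 3.33-fold, and the potassium channel gene Kcnk5 was 3.35-fold lower. Primary cilium genes gave 8 higher and 7 lower of 39 (38.5% called). The Hedgehog effector gene Gli2 was at 18.4 and 14.6 against 0.214 and 0.426 CPM, and Bbs1 was 2.88-fold lower.

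**Figure D4:**
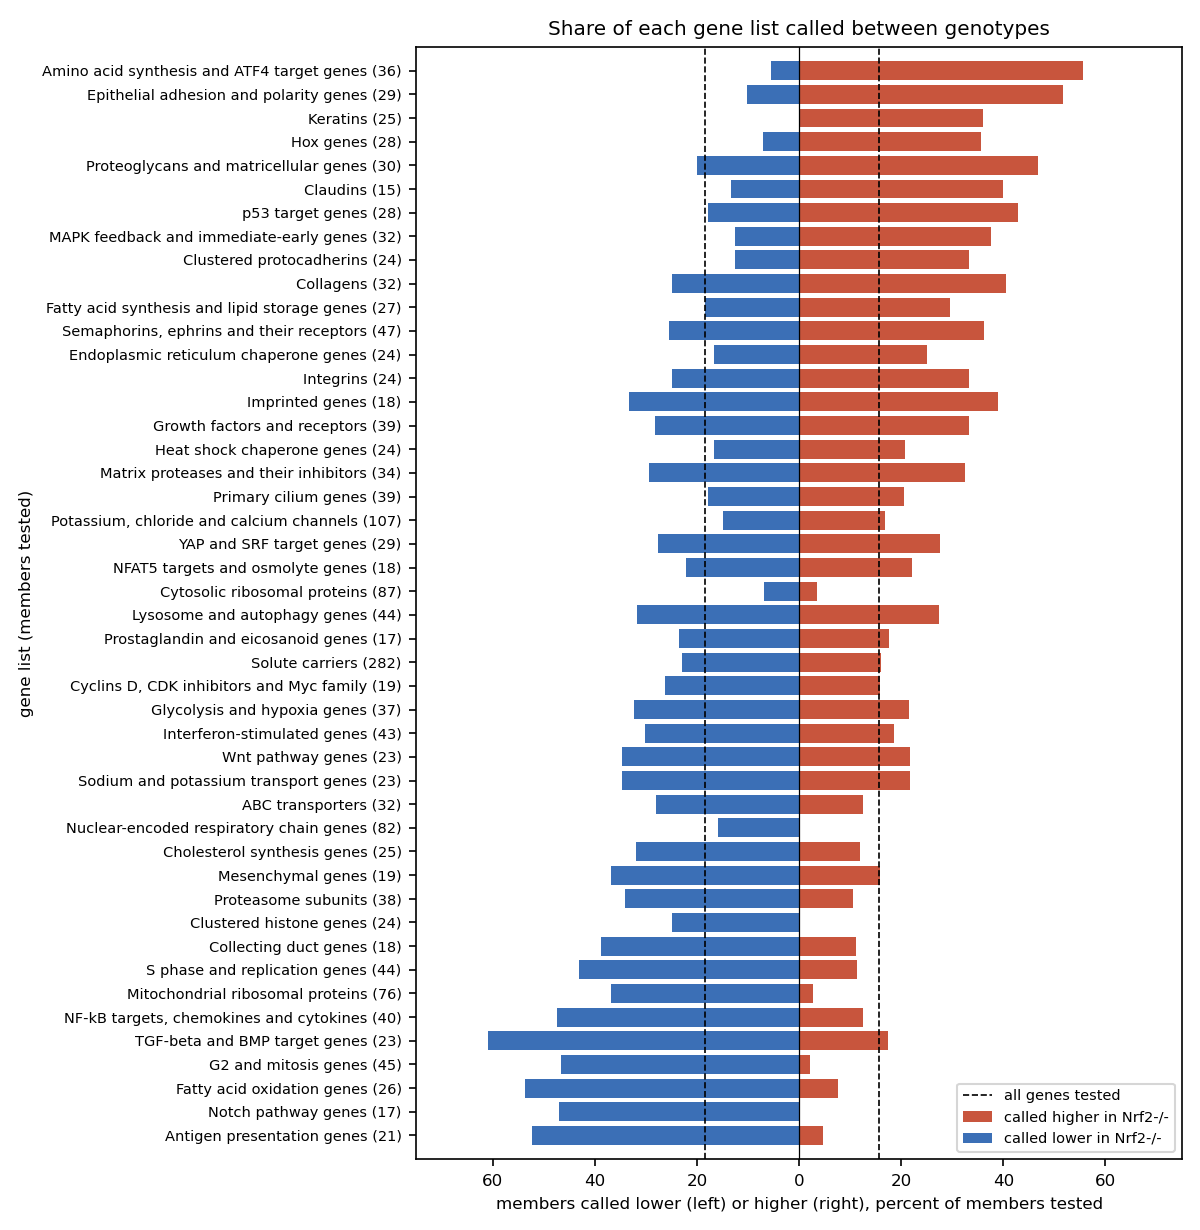
Share of tested members called higher (right) or lower (left) in Nrf2-/- SFN cells for the 46 gene lists outside the Nrf2 targets with at least 15 tested members, ordered by the difference of the shares, with the number tested in brackets. Dashed lines mark 15.7% higher and 18.4% lower over all genes tested, and amino acid synthesis and ATF4 targets stand at the top and antigen presentation genes at the bottom.

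Of 28 Hox genes, which carry positional identity, 10 were higher and 2 lower, or 42.9% called, between the 34.1% of all genes and the 48.1% of genes at 5 CPM or more. Hoxd8 was at 32.3 and 32.6 against 7.70 and 8.90 CPM and Hoxb13 at 5.06 and 4.08 against 13.97 and 12.9. Of 18 imprinted genes 7 were higher and 6 lower (72.2% called). Against the loss of Peg3 stood Peg10 (719 and 677 against 155 and 176 CPM), H19 (15.6 and 13.2 against 4.80 and 4.93), Kcnq1ot1 (19.9 and 16.01 against 3.35 and 4.02) and Snrpn (6.74 and 6.58 against 1.42 and 1.67). Of 24 clustered protocadherins 8 were higher and 3 lower, a share in the same range (45.8%), with Pcdhb16 at 9.98 and 11.2 CPM against 0.563 and 1.17 in WT SFN libraries and Pcdhgb6 at 1.28 and 1.48 against 7.35 and 9.60.

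The X chromosome stood apart from the autosomes. Among genes with a mean of at least 1 CPM over the 4 libraries, the 400 X-linked genes had a median log2 fold change of 0.89 (25th to 75th percentile 0.49 to 1.21), and 284 of them (71.0%) were higher and 24 lower. Medians of the autosomes lay between -0.28 for chromosome 2, which carries Nfe2l2, and 0.36 for chromosome 16, and that of all 12291 genes was -0.03. At 1 h the X-linked median was again 0.91, while SFN against DMSO in WT cells moved it by 0.06. Over all genes tested, 301 of 567 X-linked genes were higher, which is 9.84% of all higher calls where X holds 2.91% of genes tested. Flna, Lamp2, Pola1, Rps4x, Eda2r, Hdx and Xlr, named above, are among them, and G6pdx, also X-linked, was lower. Xist, the RNA that silences an X chromosome, stood at 0.540 and 1.05 CPM in Nrf2-/- and 0.0804 and 0.0741 in WT SFN libraries. The number of X chromosomes in the 2 lines was not measured here, and its part in the result was not tested.

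**Figure D5:**
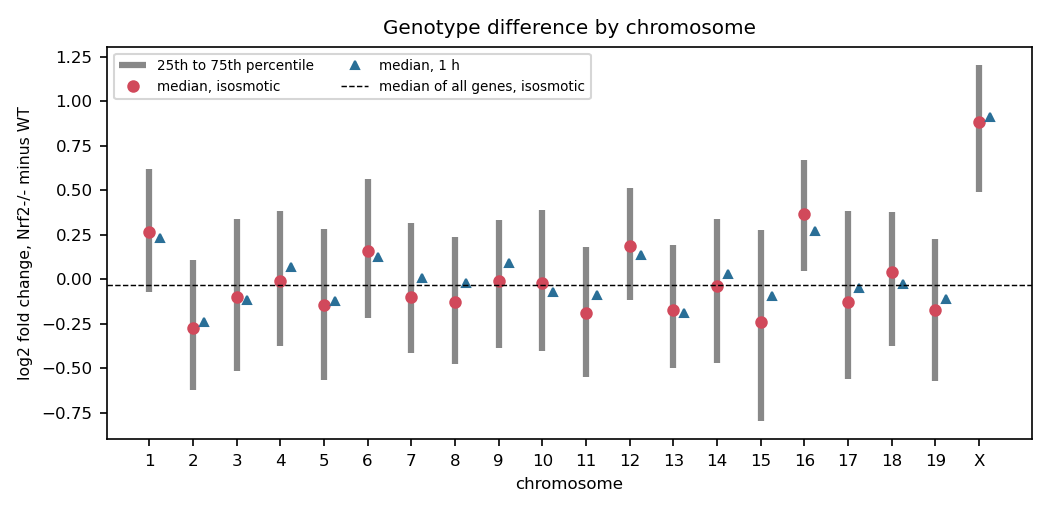
Log2 fold change between Nrf2-/- SFN and WT SFN cells by chromosome for the 12291 genes with at least 1 CPM on average, as the median (circles) and 25th to 75th percentile (bars) of the isosmotic comparison, with medians of the 1 h comparison as triangles and the median of all genes dashed. The X chromosome lies at 0.89 and 0.91, above every autosome, the highest of which is chromosome 16 at 0.36.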

How the data were processed

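Total RNA from mIMCD3 cells was sequenced in 16 libraries, 2 for each of 8 conditions. The authors aligned reads to mm10 and counted them per gene symbol with featureCounts, and the deposited files hold these raw counts, 1 file per library. The study's methods name Hisat2 as the aligner and the submitters' processing notes name Bowtie2. The annotation, strand setting and treatment of multi-mapping reads are not given in the sources used here. Of counts from 1 to 10, 58.0% to 68.5% were even in each library, so small counts may not be single fragments. A line without a gene name was present in 2 libraries and left out.

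Counts were normalised with TMM, filtered with filterByExpr over the 8 conditions and fitted over all 16 libraries with edgeR 4.0.16 (R 4.3.3, limma 3.58.1), using the robust quasi-likelihood test with Benjamini-Hochberg adjustment at 0.05. The study's methods give the RNA-seq data as 2 biological replicates, and the labels do not say whether these were separate cultures. The p-values rest on the spread between libraries of a condition, estimated over all 8 conditions. How much of that spread is technical cannot be told from 2 libraries a condition. On simulated counts for 18931 genes, 87 of 100 genes changed by 1 on the log2 scale and 98 of 100 changed by 2 were recovered, with 13 false calls. The simulation gave every gene and library the same spread. It changed only genes at 5 CPM or more and left all others equal between genotypes. In the data the biological coefficient of variation ran from 0.0393 to 0.348 by condition and 34.1% of genes were called, so these rates need not hold here. CPM use TMM library sizes. Where a condition had 0 counts, folds are bounds against 3 counts per library, and ratios on 1 to 3 counts have a 95% Poisson interval. Both cover counting error only. Coordinates are from GENCODE M21 and promoters from RefSeq GRCm38.p6, and 97.6% of tested genes matched the annotation.

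The genes named are Nfe2l2, Keap1 and Bach1, the 12 largest differences in each direction at 10 CPM or more with groups that did not overlap, up to 4 called genes a direction at 5 CPM or more in each gene list, called neighbours of Nfe2l2 and cell type markers. Not all genes that the rule allows are printed, and some are not reported here. Those given as not called were named after their values were seen. The comparison and the gene lists were chosen with earlier results of these data known. Alternatives were DESeq2 1.42.0, RLE and upper-quartile factors, other filters, fits on fewer libraries, a replicate block, a test against a 2-fold change, removal of each library and removal of trends with gene length and GC content.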

Additional observations from a re-analysis of the deposited data

Results flagged for a closer look

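For 4 of the named genes the difference between genotypes was itself different between isosmotic medium and 1 h of hyperosmotic medium (interaction term in edgeR's quasi-likelihood test over all genes tested, where 24 genes passed). Klf4, a transcription factor gene of the immediate-early list, was higher in Nrf2-/- cells by 2.50 on the log2 scale under isosmotic conditions and by 0.89 at 1 h, an interaction of -1.60 (adjusted p = 0.00585). The other genes had no count in isosmotic Nrf2-/- libraries and a few counts at 1 h, so their fitted values depend on the prior count. Bend4 differed by 7.18 between the conditions (-14.34 and -7.16, adjusted p = 0.00585), with 7 and 16 counts in the Nrf2-/- libraries at 1 h. Mmp14 differed by 6.70 (-12.85 and -6.14, adjusted p = 0.00585), with 9 and 12 counts. Col4a2 differed by 5.94 (-15.62 and -9.68, adjusted p = 0.0300), with 4 and 7 counts.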

How the results depend on the processing

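Tested against a 2-fold change, 1472 genes passed, 598 higher and 874 lower, in place of 6643, since the null is wider by construction. With each of the 4 libraries left out in turn, calls ranged from 4491 to 5300, those higher from 1939 to 2413 and those lower from 2440 to 2887, and the lone library of a genotype was assumed to vary like the other conditions. The count of higher genes moved by over 1.5 times only without WT SFN replicate 1, to 1939. Other counts stayed within 1.5 times of 6643: 6628 with RLE factors, 6628 with upper-quartile factors, 7005 of 34951 genes without a filter, 5949 of 12291 with a mean of at least 50 counts, 8035 in a fit on the 4 libraries alone, 8909 without the 2 Nrf2-/- SFN 1 h libraries, whose spread was the widest, and 7128 with DESeq2. Of the main calls, 84% to 99.4% were shared with these 7 alternatives. The labels do not say that equal replicate numbers mark a shared culture or day, and deviations of same-numbered isosmotic libraries correlated at -0.02. With the replicate block 6403 genes were called, and no named gene changed its call. All 217 genes followed kept their sign under every alternative that tested them, apart from removal of trends with gene length and GC content. For that alternative the sign was checked only for called genes, which all kept it. Removal of a library ended 4 or 5 calls of these each time, among Slc7a11, Taldo1, Bach1, Ttc30a1, Ttc30b and Prkra, and RLE factors or no filter ended 1. The 2-fold test ended 57. Of genes named as not passing, Sqstm1, Hoxb7, Smad7, Hes1 and B2m passed without the 2 Nrf2-/- SFN 1 h libraries (adjusted p from 0.0107 to 0.0368), and Hes1 also in the fit on 4 libraries (0.0258). Medians changed sign under at least 1 alternative for laminins, other nephron genes, matrix proteases, growth factors, clustered protocadherins, YAP and SRF targets, intercalated cell, endoplasmic reticulum, metallothionein, cilium, imprinted, glycolysis, solute carrier and cytosolic ribosomal genes, and no direction was drawn from these medians. With 2 libraries a genotype, genes not called are not shown to be equal.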
